A study of Mus musculus with 6 samples.

Results

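Cultured ventricular cardiomyocytes of newborn mice that had been treated with cyclopamine were compared, gene by gene, with cells of the same kind that had received DMSO, the solvent. The comparison sets the count column of the cyclopamine group against that of the DMSO group and takes in every gene of the deposited table. Of 55487 genes listed, 21623 had a count in either library, and the 13659 that averaged at least 0.5 CPM (counts scaled to a common library size) over both libraries were kept. All cells were wild-type and came from pups of postnatal day 1 or 2. Fibroblasts had been removed with CD90 antibodies, and the cells were plated at 70000 per well and left for 12 h. Cyclopamine at 5 µg/ml, or the solvent, was then present for 48 h. The labels list 2 samples in each group, but the table has 1 column per group and does not say whether a column is 1 replicate or a pool. The number of pups, the strain and any other cells left after the depletion are not described, and another group, treated with GANT61, takes no part in the comparison and enters a single alternative scaling.

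Cyclopamine is a plant alkaloid that binds and blocks Smoothened, the membrane receptor at the centre of Hedgehog signalling. A Hedgehog ligand binds Patched, which otherwise holds Smoothened inactive, and active Smoothened works through the primary cilium to free the GLI transcription factors. In the developing heart the pathway is known for its roles in the second heart field, in septation and in the coronary vessels. Smoothened itself binds sterols, and cyclopamine is a steroidal alkaloid. Genes of sterol handling were read beside those of the Hedgehog pathway, and all lists were chosen with earlier results of these data known.

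The cyclopamine library held 38966515 counts and the DMSO library 36661845. A count was found for 19774 genes in the cyclopamine library and for 20120 in the DMSO library, and mitochondrially encoded genes took 6.42% and 5.21% of the counts. With 1 library per group no difference below has a replicate check. Differences are given as counts, as log2 fold changes (cyclopamine over DMSO) or as both, and for some genes with the exact 95% counting interval in parentheses, which covers counting error only and not the variation between cultures. Reads without molecular identifiers are not independent molecules, so even the counting error may be larger. Below, "by size" means a difference of at least 1.5-fold with an interval that excluded no difference.

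Over the whole transcriptome the 2 libraries lay close together. By size 450 genes were higher with cyclopamine, 3.29% of the genes kept, and 876 were lower, 6.41%, while 12333 were neither. The median log2 fold change was -0.003, the middle 50% of genes lay between -0.18 and 0.15, and the middle 95% between -1.01 and 0.71. At 2-fold or more 163 genes were higher and 350 lower, and at 4-fold or more 16 and 23. The genes called were mostly of low level: their median was 2.81 CPM for the higher and 2.70 CPM for the lower, against 19.8 CPM over all genes kept. Between 0.5 and 1 CPM 8.66% of genes were higher and 16.1% lower by size. Between 20 and 100 CPM these shares were 1.35% and 1.37%. The genes called higher made up 35143 CPM of the cyclopamine library and 18282 CPM of the DMSO library, and the genes called lower 11443 and 20162 CPM.

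**Figure D1:**
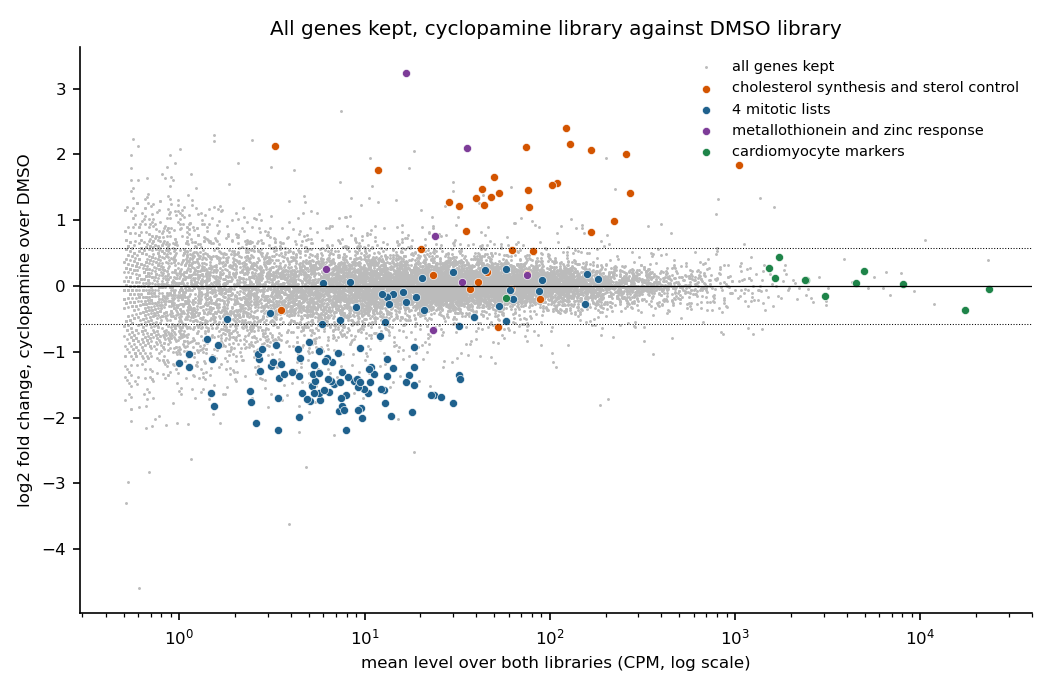
Log2 fold change, cyclopamine over DMSO, against the mean level in CPM (log scale) for the 13659 genes kept, 1 grey point each, with metallothionein and zinc genes in purple and dotted lines at 1.5-fold. Cholesterol and sterol control genes (orange) lie mostly above the upper line, genes of the 4 mitotic lists (blue) mostly below the lower line, and the 12 cardiomyocyte markers (green) between the lines.

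Cardiomyocyte markers were abundant in both libraries, as the label says. The 12 cardiomyocyte markers summed to 69546 CPM in the cyclopamine library and 72592 CPM in the DMSO library, and 0 of them were higher and 0 lower by size. Myh6, the adult-type alpha myosin heavy chain, had 888000 counts with cyclopamine and 879786 with DMSO. Markers of other cells were present at lower levels. The 19 fibroblast markers kept summed to 2894 CPM with cyclopamine and 3483 CPM with DMSO, and Thy1, which encodes the CD90 used for the depletion, had 2834 and 3050 counts. The 14 smooth muscle and pericyte markers summed to 4958 CPM with cyclopamine and 6539 CPM with DMSO, a sum that includes Acta2, a gene that immature cardiomyocytes also express. Defining members of that list were near 0, with 25 counts of Myh11, the smooth muscle myosin, with cyclopamine and 21 with DMSO, and 0 and 2 counts of Rgs5, a pericyte gene. The 15 endothelial markers summed to 226 CPM with cyclopamine and 245 CPM with DMSO, the 17 epicardial and mesothelial markers to 326 and 381 CPM, and the 3 macrophage markers kept to 14.8 and 9.60 CPM. The haemoglobin genes Hba-a1, Hba-a2, Hbb-bs and Hbb-bt had 0 counts in both libraries. In libraries of this kind, fewer cells of a type and less RNA per cell cannot be told apart.

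The genes at both ends of the ranking fell into few kinds. Of the 12 highest genes with a mean of at least 5 CPM and a descriptive symbol (not only a Gm number, a Rik clone or an accession), 7 encode enzymes of cholesterol synthesis (Fdft1, Idi1, Msmo1, Cyp51, Hmgcs1, Tm7sf2 and Lss), and Insig1 encodes the sterol sensor that restrains that pathway. The others were the metallothionein genes Mt2 and Mt1, the stearoyl-CoA desaturase gene Scd1, and Klhdc7a, a gene of unclear role in the heart, with 660 counts in the cyclopamine library and 162 in the DMSO library. Of the 12 lowest by the same rule, 8 are genes of mitosis (Dlgap5, Cdca8, Cenpf, Ccnb1, Ccnb2, Spag5, Birc5 and Plk1), and Fam83d is a further spindle gene. The remaining lowest genes were Abca1, a cholesterol exporter, Tnnt3, the fast skeletal troponin T, and Wscd2, whose function is not well known, with 230 counts in the cyclopamine library and 897 in the DMSO library.

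The Hedgehog pathway itself showed small differences. Ligand genes were near the limit of detection: Shh had 0 counts in the cyclopamine library and 8 in the DMSO library, at least 2.79-fold lower against a floor of 3 counts per library if the 8 are taken as exact. The counting interval of Shh ended at -0.84. Ihh had 3 counts with cyclopamine and 2 with DMSO. Of the exonic bases of Shh 28.3% lie in another annotated gene. Dhh, the desert hedgehog gene, had 15 counts with cyclopamine and 18 with DMSO. Of 5 genes of ligand release and processing kept, Disp2, a relative of the ligand exporter Dispatched, was lower by size with 19 counts with cyclopamine against 48 with DMSO, and Disp1, the exporter itself, had 564 and 549. Scube2, whose secreted product helps to release the ligand, had 213 counts with cyclopamine and 147 with DMSO, at 0.47 (0.16 to 0.78).

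Of 8 receptor and co-receptor genes kept, 0 were higher and 0 lower by size, with a median log2 fold change of -0.25. The intervals of 5 of them lay wholly below 0. Ptch1, which encodes the receptor and is also a GLI target, had 1368 counts in the cyclopamine library and 1437 in the DMSO library, at -0.13 (-0.24 to -0.03). Smo (chr6:29735503-29761365), the gene of the blocked protein, had 672 counts with cyclopamine and 798 with DMSO, at -0.31 (-0.46 to -0.16). The co-receptor genes Cdon and Boc, which present the ligand to Patched, were at -0.46 (-0.50 to -0.41) and -0.54 (-0.78 to -0.32), and Gpc3, a glypican that competes for ligand, was at -0.42. Gas1, a further co-receptor gene, was at 0.07, Lrp2 at -0.19 and Gpc6 at 0.27, and the intervals of these genes spanned 0.

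Among 16 kept genes that carry the signal to the GLI factors, Gpr161 was lower by size. It encodes a ciliary receptor that holds the pathway off, and had 182 counts with cyclopamine and 272 with DMSO, at -0.64 (-0.92 to -0.37). Kif7, the kinesin of the cilium tip, was at -0.55 and Evc, a partner of Smoothened at the cilium base, at -0.46, both short of 1.5-fold. Sufu, the cytoplasmic inhibitor of the GLI factors, had 965 counts with cyclopamine and 1012 with DMSO. Genes of protein kinase A and casein kinase, whose products phosphorylate the GLI factors, were close to 0, with Prkaca at -0.01 and Csnk1a1 at 0.05. Of the GLI factors, Gli3 had 187 counts in the cyclopamine library and 205 in the DMSO library, Gli2 had 11 and 16, and Gli1 had 0 and 7. The Gli1 value (GRCm38 chr10:127329882-127341974) is at least 2.44-fold lower against the floor of 3 counts if those 7 reads are taken as exact, and its counting interval ended at -0.59.

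The GLI target list had a median close to that of all genes. Ptch1, Hhip and Gli1, described above or below, are members of this list too, and of these only Ptch1 was kept. Of 16 members kept 0 were higher and 2 lower by size, beside 3.29% higher and 6.41% lower of all genes kept. The list's median was -0.10. The 2 lower members were Foxm1, a transcription factor of mitosis, with 197 counts with cyclopamine against 587 with DMSO, and Snai1, a regulator of epithelial to mesenchymal change, with 64 against 135. Ccnd2, a D-type cyclin, lay on the other side with 17894 counts in the cyclopamine library and 12298 in the DMSO library, at 0.48 (0.44 to 0.51), and the survival gene Bcl2 was at 0.42. Hhip, a target that encodes a ligand trap, had 0 counts in both. Of 47 kept genes of the primary cilium and its transport, 0 were higher and 0 lower by size, and 29 of them had a log2 fold change below 0 (median -0.14). The letters GACCACCCA, the best known GLI binding sequence, were found on either strand in 0 of the 9 promoter windows given for the target genes and in 0.219% of all windows, which says only that those letters are not in these windows.

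**Figure D2:**
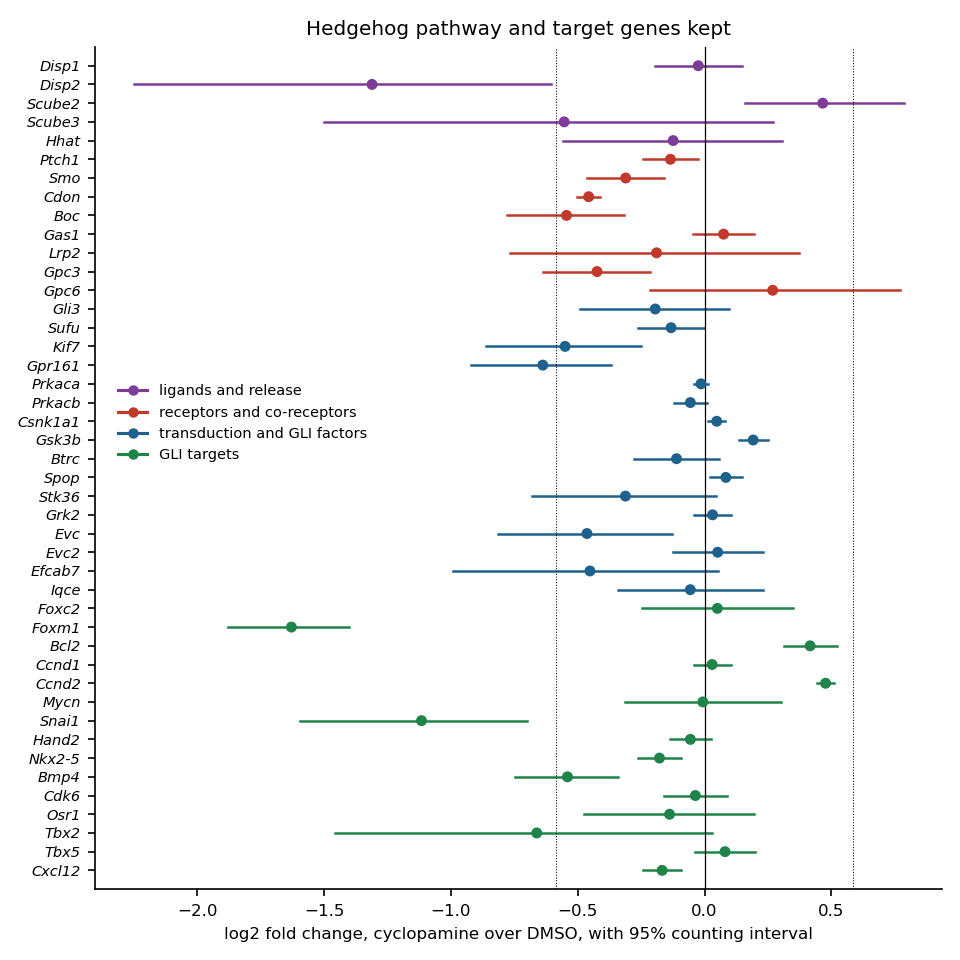
Log2 fold change, cyclopamine over DMSO, of each Hedgehog pathway and target gene kept, with its 95% counting interval as a line and dotted lines at 1.5-fold. Only Disp2, Gpr161, Foxm1 and Snai1 pass the 1.5-fold line with an interval clear of 0, and the 8 receptor and co-receptor genes (red) lie between -0.54 and 0.27.

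Cholesterol is made from acetyl-CoA through mevalonate and squalene, in a chain of enzymes whose genes share the transcription factor SREBP2. SREBP2 is held in the endoplasmic reticulum membrane by SCAP and the INSIG proteins while sterols are plentiful, and it is cut free when they run short. The promoters of such genes are known for paired sites, a sterol response element beside a CCAAT box bound by NF-Y. In the cyclopamine library these genes were higher along nearly the whole chain. Of 9 genes from acetyl-CoA to farnesyl diphosphate 8 were higher by size (median log2 fold change 1.41), and of 12 genes from squalene to cholesterol 11 were (median 1.55), beside a median of -0.003 over all genes kept. The 9 genes of the early part summed to 2116 CPM with cyclopamine and 655 CPM with DMSO, and the 12 of the late part to 1846 and 600 CPM.

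The promoter windows of Insig1, Idi1 and Hmgcs1 are shown because these genes stood among the 12 highest named above and because Hmgcs1 alone of the synthesis genes with a window holds the sterol element searched. The Hmgcs1 window was chosen after that match was seen. The windows were taken from RefSeq on GRCm38.p6 and run from 250 bases before to 50 bases after the annotated start, 5′ to 3′ on the gene's strand. They lie at chr5:28071162-28071461, plus strand, for Insig1, at chr13:8885356-8885655, plus strand, for Idi1, and at chr13:119690101-119690400, plus strand, for Hmgcs1. Capitals mark CCAAT on either strand (ATTGG is its reverse complement) and TCACNCCAC, the sterol response element.
Insig1: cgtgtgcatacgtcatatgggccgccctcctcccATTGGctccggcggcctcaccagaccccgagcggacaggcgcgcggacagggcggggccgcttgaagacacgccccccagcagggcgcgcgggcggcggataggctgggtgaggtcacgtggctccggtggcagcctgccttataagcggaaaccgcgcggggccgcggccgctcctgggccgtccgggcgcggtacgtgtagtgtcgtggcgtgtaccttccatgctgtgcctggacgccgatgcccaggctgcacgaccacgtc
Idi1: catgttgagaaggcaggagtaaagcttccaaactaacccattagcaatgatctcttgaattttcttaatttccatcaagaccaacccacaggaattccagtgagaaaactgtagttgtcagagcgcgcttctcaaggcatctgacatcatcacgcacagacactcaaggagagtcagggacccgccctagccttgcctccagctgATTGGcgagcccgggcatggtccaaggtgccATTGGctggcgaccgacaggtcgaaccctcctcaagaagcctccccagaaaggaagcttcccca
Hmgcs1: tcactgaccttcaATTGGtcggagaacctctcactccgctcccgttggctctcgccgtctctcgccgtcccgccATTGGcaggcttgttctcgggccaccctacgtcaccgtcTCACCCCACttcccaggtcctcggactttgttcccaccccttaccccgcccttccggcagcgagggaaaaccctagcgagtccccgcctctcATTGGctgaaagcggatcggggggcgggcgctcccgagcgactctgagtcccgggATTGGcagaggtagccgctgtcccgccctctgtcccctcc
CCAAT was present in 14 of the 16 synthesis genes with a window (87.5%), against 38.9% of the 10053 windows of all genes kept. TCACNCCAC was present in 1 of the 16, Hmgcs1, where it reads TCACCCCAC, and in 1.06% of all windows. Hmgcs1 has 4 CCAAT boxes in its window, Idi1 has 2 and Insig1 has 1. CCAAT was about as frequent among all genes higher by size (40.9%) and all genes lower by size (41.5%) as among all genes kept. A match is a description of letters and shows no binding.

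In the order of the chain, the first steps were higher at very different levels. Acat2, which joins 2 acetyl-CoA units, had 2998 counts in the cyclopamine library and 1080 in the DMSO library, at 1.41 (1.31 to 1.51), and 45.9% of its 50-base sequence windows also occur in another annotated gene, so its reads may be shared. Hmgcs1, the cytosolic HMG-CoA synthase, had 63090 counts with cyclopamine and 16926 with DMSO, at 1.83 (1.81 to 1.86). It had the highest level of the chain's genes described here, per length of exon in both libraries, 355 RPKM (CPM per kilobase of exon) with cyclopamine and 99.7 RPKM with DMSO. The mevalonate kinase gene Mvk was at 1.28, Pmvk, the next kinase, at 0.84 and the decarboxylase gene Mvd at 1.22. Idi1, the isopentenyl diphosphate isomerase, had 4677 counts with cyclopamine against 1031 with DMSO, at 2.12 (2.02 to 2.22), and 21.3% of its windows occur elsewhere. Fdps, which makes farnesyl diphosphate, was at 2.13 (1.70 to 2.68) on 208 counts with cyclopamine and 44 with DMSO, and 26.7% of its exonic bases lie in an exon of another annotated gene. Ggps1, which leads away from sterols to geranylgeranyl diphosphate for protein prenylation, was the exception, with 1400 counts in the cyclopamine library and 1385 in the DMSO library.

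The steps that commit the chain to sterols carried the highest value. Fdft1, squalene synthase (GRCm38 chr14:63145150-63179578), had 7919 counts with cyclopamine and 1433 with DMSO, at 2.40 (2.32 to 2.48), or 5.28-fold. Its last exon overlaps that of Ctsb, a lysosomal protease gene on the other strand, and Ctsb had 28823 counts with cyclopamine and 25901 with DMSO. Sqle, the squalene epoxidase and a control point of the pathway, was at 1.57, and Lss, which closes the ring to lanosterol, at 1.65. Cyp51, the lanosterol demethylase, had 15967 counts with cyclopamine against 3794 with DMSO, at 2.01 (1.96 to 2.06), and Tm7sf2, a sterol reductase, had 710 against 198, at 1.77. Msmo1 and Nsdhl, which remove the remaining methyl groups, were at 2.07 and 1.54. Of the final enzymes Hsd17b7 was at 1.34 and Sc5d had 4149 counts with cyclopamine against 1729 with DMSO. Dhcr7, which makes cholesterol from its dehydro precursor, was at 1.47. Ebp, the sterol isomerase, had 925 counts with cyclopamine and 600 with DMSO and at 0.56 (0.41 to 0.71) was short of 1.5-fold.

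**Figure D3:**
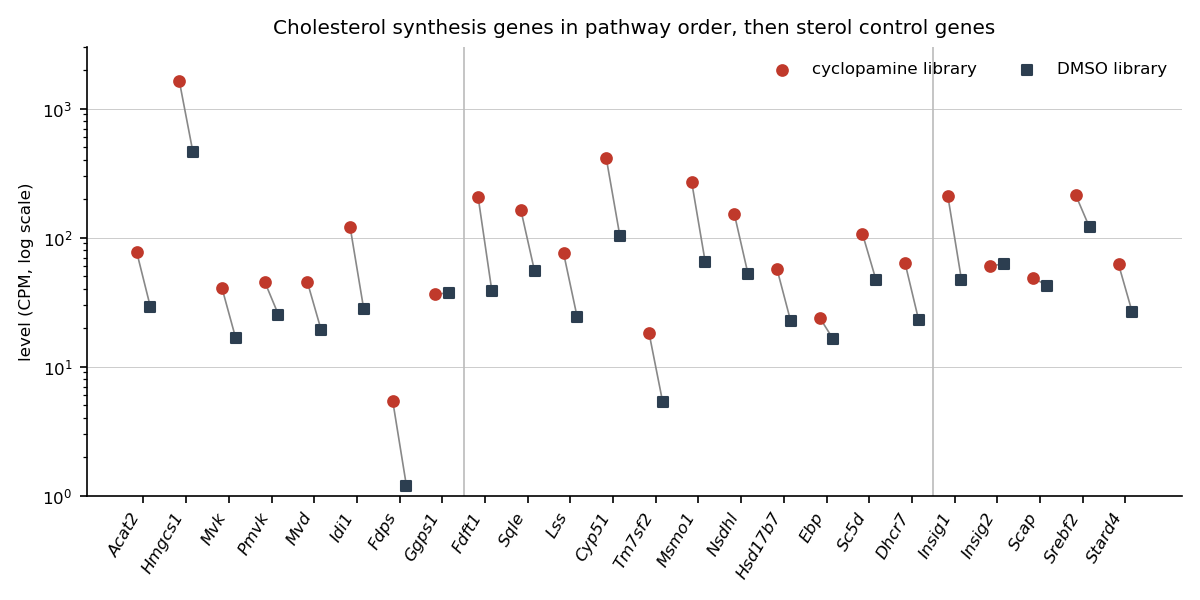
Level in CPM (log scale) of the cholesterol synthesis genes described, in the order of the pathway, and of 5 sterol control genes, in the cyclopamine library (red circles) and the DMSO library (dark squares), 1 library each, with grey lines between the early genes, the late genes and the control genes. The cyclopamine point is the higher of the pair for every gene shown except Ggps1 and Insig2.

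Genes that control SREBP2 or bring sterol into the cell were higher in part. Of 15 kept, 5 were higher and 1 lower by size. Insig1 had 8158 counts in the cyclopamine library and 1747 in the DMSO library, at 2.16 (2.08 to 2.23), while its relative Insig2 had 2332 and 2314, at -0.05. Stard4, a carrier of cholesterol between membranes, was at 1.23, and Srebf2, the gene of SREBP2, at 0.82. Lpin1, a phosphatidate phosphatase, was at 1.36. Srebf1, the gene of the related factor SREBP1, was at 0.18 and Scap at 0.21, both short of 1.5-fold. The lower member was Rnf145, a ubiquitin ligase gene, with 1590 counts with cyclopamine against 2353 with DMSO, at -0.63 (-0.72 to -0.54).

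Genes of sterol export were mostly short of 1.5-fold, with a few transporter genes lower. Of 18 kept genes of the LXR receptors, which sense oxysterols, and of efflux, 0 were higher and 3 lower by size. The list's median was 0.06, and 3.29% of all genes kept were higher and 6.41% lower. Abca1 (GRCm38 chr4:53030787-53159895), which loads cholesterol onto apolipoproteins, had 209 counts in the cyclopamine library and 1163 in the DMSO library, at -2.53 (-2.76 to -2.33). The transporter genes Abcg1 and Abcg4 had 94 counts with cyclopamine against 309 with DMSO and 29 against 58, at -1.76 and -1.01. The receptor genes Nr1h2 and Nr1h3 themselves were at -0.06 and 0.29, and Apoe, the apolipoprotein gene, was at 0.36 with 501 counts with cyclopamine against 374 with DMSO. Of 19 genes of sterol transport within the cell and of esterification, 0 were higher and 1 lower by size, Gramd1b, a carrier at the plasma membrane, at -0.61.

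Fatty acid genes were higher for synthesis and desaturation. Of 25 kept, 11 were higher and 0 lower by size, with a median of 0.47. The list summed to 4659 CPM in the cyclopamine library and 2543 CPM in the DMSO library. The desaturase genes Scd1 and Scd2 had 12269 counts with cyclopamine against 3032 with DMSO and 75941 against 28705, at 1.95 (1.90 to 2.01) and 1.34 (1.32 to 1.36). Per length of exon Scd2 was the more abundant, at 360 RPKM with cyclopamine and 142 RPKM with DMSO, beside 64.9 and 16.8 RPKM for Scd1. Of the polyunsaturated fatty acid desaturase genes, Fads2 had 3514 counts with cyclopamine against 1186 with DMSO, Fads1 was at 0.81 and Fads3 at -0.12. Acly, Acss2, Acaca and Fasn, which make acetyl-CoA and build the chain from it, lay between 0.89 and 0.96, and Acsl3, a long-chain acyl-CoA synthetase, was at 1.45. Genes outside the lists, chosen after their values were seen, belong nearby: Aacs, an acetoacetyl-CoA synthetase, had 2449 counts with cyclopamine against 898 with DMSO, Idh1, a source of NADPH, 3620 against 1684, Mmab, a cobalamin enzyme, 1665 against 769, and Gas6, a secreted ligand of TAM receptors, 12780 against 4420.

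Lysosome genes did not follow as a group. Of 38 kept, 2 were higher and 0 lower by size, and the median was 0.11. Among all genes kept 3.29% were higher and 6.41% lower. Gpnmb, a lysosomal glycoprotein gene, had 1740 counts in the cyclopamine library and 557 in the DMSO library, at 1.58 (1.44 to 1.72), and Ctss, a cathepsin of macrophages and other antigen-presenting cells, had 110 against 66. Macrophage genes were scarce, with 7 of 22 markers at 0 in the cyclopamine library and 4 in the DMSO library, and Lyz2, the lysozyme gene, had 465 counts against 274, at 0.70. Csf1r, the macrophage growth factor receptor, had 57 counts with cyclopamine and 40 with DMSO, and C1qa, a complement gene of tissue macrophages, had 2 and 10. The part of such cells in the Gpnmb value was not tested. Of 25 autophagy genes 2 were higher and 0 lower by size, Flcn at 0.69 and Rragd at 0.67, both of which encode proteins that signal nutrient state at the lysosome.

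Metallothioneins are small proteins rich in cysteine that bind zinc and copper, and their genes are known to be induced through metal response elements by the zinc sensor MTF1. Mt2 (GRCm38 chr8:94172664-94173568) had the highest log2 fold change among the named genes, 3.24 (2.99 to 3.55), with 1174 counts in the cyclopamine library and 117 in the DMSO library. Mt1, its neighbour on chromosome 8, had 2251 counts with cyclopamine against 503 with DMSO, at 2.09 (1.96 to 2.24). Mt3 had 260 counts with cyclopamine and 207 with DMSO and its interval reached 0. Of the 7 genes kept in this list 3 were higher and 1 lower by size. The third higher gene was Slc30a1, the zinc exporter, with 1175 counts with cyclopamine against 660 with DMSO, and the lower one was Slc39a10, a zinc importer, with 695 against 1057. Mtf1, the gene of the sensor, was at 0.06. Of Mt2's exonic bases 73.5% lie in an exon of another annotated gene on the other strand, which had 1 count in each library.

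The windows of Mt1 and Mt2 are shown because they carry several metal response elements within the 300 bases. They come from RefSeq on GRCm38.p6, at chr8:94172368-94172667, plus strand, for Mt2, and chr8:94178839-94179138, plus strand, for Mt1. Capitals mark TGCACNC or TGCGCNC on either strand.
Mt2: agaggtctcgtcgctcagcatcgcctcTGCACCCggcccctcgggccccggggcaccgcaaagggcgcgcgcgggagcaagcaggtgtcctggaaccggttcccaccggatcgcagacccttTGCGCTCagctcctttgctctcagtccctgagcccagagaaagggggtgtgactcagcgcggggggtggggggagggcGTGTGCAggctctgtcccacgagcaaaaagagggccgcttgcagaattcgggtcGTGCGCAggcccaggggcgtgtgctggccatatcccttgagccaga
Mt1: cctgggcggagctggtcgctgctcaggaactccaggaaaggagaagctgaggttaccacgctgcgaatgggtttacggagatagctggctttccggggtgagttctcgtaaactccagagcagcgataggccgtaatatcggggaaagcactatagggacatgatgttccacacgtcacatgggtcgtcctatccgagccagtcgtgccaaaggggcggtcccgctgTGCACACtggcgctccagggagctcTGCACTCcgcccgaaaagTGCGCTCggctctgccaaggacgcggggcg
Mt2 holds 4 such elements and Mt1 holds 3, and the remaining metallothionein kept, Mt3, holds 1. At least 1 was present in 37.0% of all windows. Mt1 and Mt2 are also on the list of glucocorticoid-responsive genes, of whose 18 kept members they were the only ones higher by size.

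Cell cycle genes were lower, and the most so where they serve mitosis. Across the 4 mitotic lists 0 of 125 genes kept were higher and 94 lower by size (75.2%, beside 6.41% of all genes kept), with a median of -1.30. They summed to 1708 CPM in the cyclopamine library and 2526 CPM in the DMSO library. These genes are active in dividing cells, which include fibroblasts and other cells that remain after the depletion as well as the cardiomyocytes of newborn mice. In the same comparison fibroblast markers had a median of -0.17, with 1 of 19 higher and 1 lower by size. Endothelial markers had a median of -0.27, with 0 of 15 higher and 1 lower, and smooth muscle and pericyte markers of -0.29, with 2 of 14 higher and 4 lower. The part of such cells in the mitotic values was not tested.

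The windows of the 2 B-type cyclin genes are shown as examples of mitotic promoters, whose late activation is known to run through CCAAT boxes and the cell cycle homology region TTTGAA. They come from RefSeq on GRCm38.p6, at chr13:100786437-100786736, minus strand, for Ccnb1, and chr9:70421505-70421804, minus strand, for Ccnb2. Capitals mark CCAAT and TTTGAA on either strand.
Ccnb1: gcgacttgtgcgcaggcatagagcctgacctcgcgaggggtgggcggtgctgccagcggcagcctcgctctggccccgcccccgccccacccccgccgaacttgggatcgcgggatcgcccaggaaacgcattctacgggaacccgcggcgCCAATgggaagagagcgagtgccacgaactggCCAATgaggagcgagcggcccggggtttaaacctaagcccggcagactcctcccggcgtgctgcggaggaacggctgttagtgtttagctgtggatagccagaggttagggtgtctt
Ccnb2: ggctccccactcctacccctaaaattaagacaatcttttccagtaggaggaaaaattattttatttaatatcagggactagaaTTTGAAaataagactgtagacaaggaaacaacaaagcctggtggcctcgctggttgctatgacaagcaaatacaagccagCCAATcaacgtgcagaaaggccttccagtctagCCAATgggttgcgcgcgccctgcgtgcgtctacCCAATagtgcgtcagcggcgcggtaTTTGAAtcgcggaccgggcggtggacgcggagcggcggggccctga
Ccnb2 has 3 CCAAT boxes spaced 33 bases apart, with TTTGAA on both sides of them, and Ccnb1 has 2 boxes and no TTTGAA in its window. TTTGAA was present in 59 of the 102 windows given for the 4 mitotic lists (57.8%), against 11.6% of all windows. TTTGAA was present in 21.2% of the windows of all genes lower by size and in 11.1% of those of all genes higher by size. The genes lower by size include most of the mitotic members, so their share partly repeats the mitotic one. CCAAT was present in 65.7% of the mitotic windows.

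Of 23 mitotic cyclins, kinases and their activators 18 were lower by size (median -1.37). Ccnb1, the cyclin that drives entry into mitosis, had 289 counts in the cyclopamine library and 1049 in the DMSO library, at -1.92 (-2.12 to -1.73), and 42.1% of its sequence windows also occur in another annotated gene. Ccnb2 had 118 counts with cyclopamine against 426 with DMSO, at -1.90, and Ccna2, the cyclin of S and G2 phase, 436 against 1326, at -1.66. Cdk1, their partner kinase, had 370 counts with cyclopamine against 1010 with DMSO, at -1.51 (-1.69 to -1.34). Cdc25c, the phosphatase that activates Cdk1, had 37 counts with cyclopamine against 156 with DMSO, at -2.08. Plk1 and Aurka, kinases of the spindle poles, were at -1.86 and -1.44, and Aurkb, the kinase of the centromere, at -1.53. Of the transcription factors of this phase, Foxm1 was at -1.63 and Mybl2 at -1.30. The DREAM subunit genes Lin9 and Lin37 were short of 1.5-fold at -0.58 and -0.54, and Lin52 and Lin54 were at 0.04 and -0.09.

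At the kinetochore, which ties chromosomes to the spindle, 27 of 38 genes were lower by size. Cenpf had 216 counts with cyclopamine and 817 with DMSO, at -1.97, the outer ring genes Ndc80 and Nuf2 were at -1.76 and -1.73, and the checkpoint activator Cdc20 had 246 against 707, at -1.58. Of 28 genes of chromosome condensation and segregation 18 were lower by size. Top2a, the topoisomerase that untangles sister chromosomes, had 523 counts with cyclopamine against 1725 with DMSO, at -1.78 (-1.93 to -1.64), Cdca8 and Birc5, subunits of the chromosomal passenger complex, were at -2.01 and -1.88, and the proliferation marker Mki67 had 699 against 1719, at -1.36. The spindle, centrosome and cytokinesis list had the largest share, 31 of 36 lower by size, with a median of -1.45. In it Dlgap5, a spindle stabiliser, had 109 counts with cyclopamine against 484 with DMSO, at -2.19 (-2.53 to -1.91), Prc1, which bundles the central spindle, 473 against 1467, and Anln, of the cleavage furrow, 694 against 1769. Depdc1a was at -2.18, and 62.6% of its windows occur in another gene.

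DNA replication genes were lower by less. Of 48 genes of the origin and fork 25 were lower and 0 higher by size, with a median of -0.63. The genes of the MCM helicase lay between -0.74 for Mcm4 and -1.37 for Mcm5, and Clspn, which links the fork to its checkpoint, was at -1.52. Of 25 genes of nucleotide supply and DNA methylation upkeep 6 were lower, with Rrm2, the S-phase subunit of ribonucleotide reductase, at 451 counts in the cyclopamine library and 1238 in the DMSO library, at -1.52. Uhrf1, which guides methylation of new DNA, was at -1.45. Of 32 recombination and checkpoint repair genes 14 were lower (median -0.45), among them Fancd2 at -1.64.

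The genes of the G1 phase went both ways. Beside 3.29% higher and 6.41% lower of all genes kept, 3 of 30 were higher and 6 lower by size. The lower ones were the late G1 cyclins Ccne2 (-1.28) and Ccne1 (-0.82), the E2F factors E2f7 (-1.43), E2f8 (-1.12) and E2f1 (-0.97), and the inhibitor Cdkn2c (-0.78). Cdkn1a, the gene of the CDK inhibitor p21, was higher with 17102 counts with cyclopamine against 8708 with DMSO, at 0.91 (0.87 to 0.95). Cdkn2b, an inhibitor of Cdk4 and Cdk6, was at 0.60 and Myc, a growth factor-induced transcription factor, at 0.77. The D-type cyclins of early G1 were short of 1.5-fold, with Ccnd1 at 0.03, Ccnd2 at 0.48 and Ccnd3 at -0.11. Cdk4 was at 0.12 and the retinoblastoma gene Rb1 at 0.27.

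Targets of p53 were higher in part, 9 of 34 by size and 0 lower, with a median of 0.42. Besides Cdkn1a these included Gdf15, a secreted stress factor, with 1073 counts in the cyclopamine library and 458 in the DMSO library, at 1.16 (1.01 to 1.33), the death receptor genes Eda2r (0.99) and Fas (0.71), the growth-arrest genes Btg2 (0.89) and Gadd45a (0.69), and Trp53inp1 (0.93), a p53 cofactor. In the BCL2 family and caspases 2 of 27 were higher and 2 lower, beside 3.29% higher and 6.41% lower of all genes kept. The higher were Bid, at 164 counts with cyclopamine against 102 with DMSO, and Bcl2l11, at 312 against 194, both of which promote cell death. The lower were Bok, a further death effector, at 393 counts with cyclopamine against 814 with DMSO, and Diablo, at 139 against 205, of whose exonic bases 40.9% lie in another gene's exon.

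**Figure D4:**
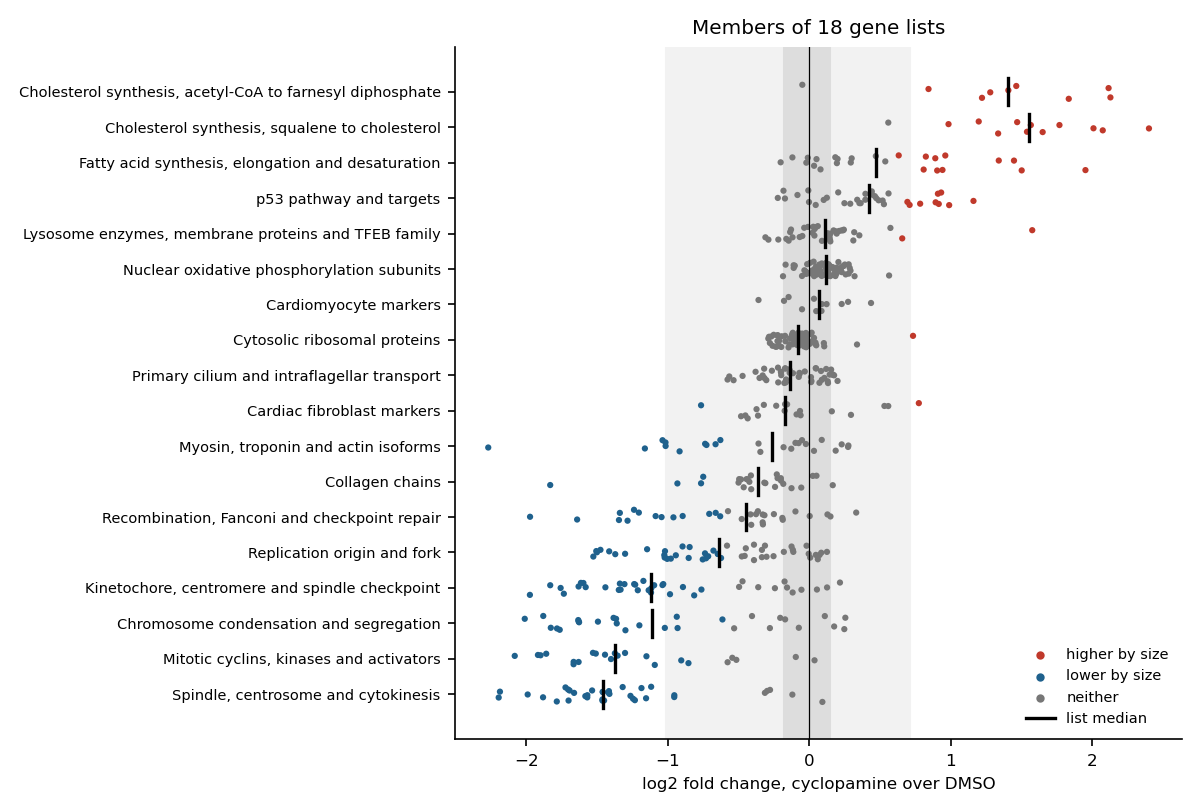
Log2 fold change, cyclopamine over DMSO, of every kept member of 18 gene lists, 1 point per gene with random vertical spread, and a bar at each list's median. The pale and dark grey bands span the middle 95% and the middle 50% of all genes kept. The 2 cholesterol lists have medians of 1.41 and 1.55 and the 4 mitotic lists medians from -1.45 to -1.11, while cardiomyocyte markers centre on 0.07.

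Contractile genes were lower in part, and those lower by size included fetal, skeletal and smooth muscle isoforms. Of 24 myosin, troponin, actin and tropomyosin genes 10 were lower and 0 higher by size. Over all genes kept 6.41% were lower and 3.29% higher. The list's median log2 fold change was -0.26, and 18 members lay below 0. The ventricular isoforms were nearly level, with Myl2, the ventricular regulatory light chain, at 0.23, Tnnt2, cardiac troponin T, at 0.03, and Tpm1 at -0.07. Myh6 made up 94.7% of the summed RPKM of the adult-type Myh6 and fetal-type Myh7 with cyclopamine and 95.5% with DMSO. Tnni3, the adult cardiac troponin I, made up 89.8% of the sum with Tnni1, the fetal form, with cyclopamine and 87.1% with DMSO. Myl4, the atrial and fetal light chain, had 9123 counts with cyclopamine against 17898 with DMSO, at -1.04, and the skeletal actin Acta1, prominent before birth, 2468 against 5281, at -1.16. The fast skeletal genes Tnnt3 (GRCm38 chr7:142498836-142516009) and Tnni2 had 90 counts with cyclopamine against 422 with DMSO and 30 against 60, and Tpm2 2631 against 5086. Actc1, cardiac actin, was itself at -0.36 with 588530 counts with cyclopamine against 721568 with DMSO.

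Several actin-filament genes shared with smooth muscle were lower as well. Among the 10 genes lower by the most CPM stood Myl9, Acta2, Fhl1, Csrp1, Synpo2, Cnn1 and Pdlim7, most of which encode parts of actin filaments or proteins that bind them. Cnn1, calponin, had 3184 counts in the cyclopamine library and 10724 in the DMSO library, at -1.82 (-1.87 to -1.76), and Synpo2, a Z-disc and stress-fibre protein, 3703 against 11631, at -1.71. Acta2, smooth muscle actin, which immature cardiomyocytes also express, had 36238 counts with cyclopamine against 57706 with DMSO, at -0.73, and Myl9 42048 against 63623. Tagln, a further gene of this kind, was at -0.25, and Myh11, specific to smooth muscle, was near 0 as given above. The other 3 of these genes were Casq1, Ddr1, a collagen receptor, and Myl4.

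In the scaffold of the sarcomere 2 of 36 genes were higher and 1 lower by size. Myom2, the M-band protein of fast and mature muscle, had 44512 counts with cyclopamine and 16970 with DMSO, at 1.33 (1.30 to 1.35). Fbxo32, a ubiquitin ligase of muscle wasting, was at 0.64 and Pdlim3, a Z-disc protein, at -0.79. Of 28 calcium cycling genes 0 were higher and 3 lower. Casq1, the skeletal calsequestrin of the calcium store, had 24950 counts against 39720, at -0.73, and Casq2, the cardiac form, made up 71.9% of their summed RPKM with cyclopamine and 62.7% with DMSO. The other lower genes were Camk2b, a calmodulin kinase, at -0.82, and Atp2b4, a plasma membrane calcium pump, at -0.70.

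Channel genes went both ways, beside 3.29% higher and 6.41% lower by size of all genes kept. Among 19 pacemaker, sodium channel and connexin genes 2 were higher and 4 lower by size. Hcn4 (GRCm38 chr9:58823412-58863175), the pacemaker channel of the sinus node and of the immature ventricle, had 283 counts in the cyclopamine library and 629 in the DMSO library, at -1.21 (-1.42 to -1.01). Tbx3, the transcription factor of the conduction system, had 154 counts with cyclopamine against 282 with DMSO, Cacna1h, a T-type calcium channel, 141 against 250, and Gjc1, connexin 45, 1668 against 2422. The higher genes were Cacna1d, an L-type channel of pacemaker cells, on 37 counts with cyclopamine against 6 with DMSO, and Scn10a, a sodium channel, with 320 against 166. Gja1, connexin 43, was at 0.32. Of 23 potassium channel genes 5 were higher and 3 lower. Kcnip2, the subunit that shapes the transient outward current, had 425 counts with cyclopamine against 135 with DMSO, at 1.58 (1.31 to 1.88). Abcc9 and Kcnj8, which form the ATP-sensitive channel of vascular and cardiac muscle, had 7477 counts with cyclopamine against 3868 with DMSO and 33 against 15. Kcnj5, of the acetylcholine-activated channel, was at 0.64 and Kcne4, a subunit of delayed rectifier channels, at 0.94. The lower genes were Kcnj14 (-1.32), Kcna4 (-0.79) and the calcium-activated Kcnn2 (-0.66), and 31.2% of the Kcnj14 windows occur in another gene.

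**Figure D5:**
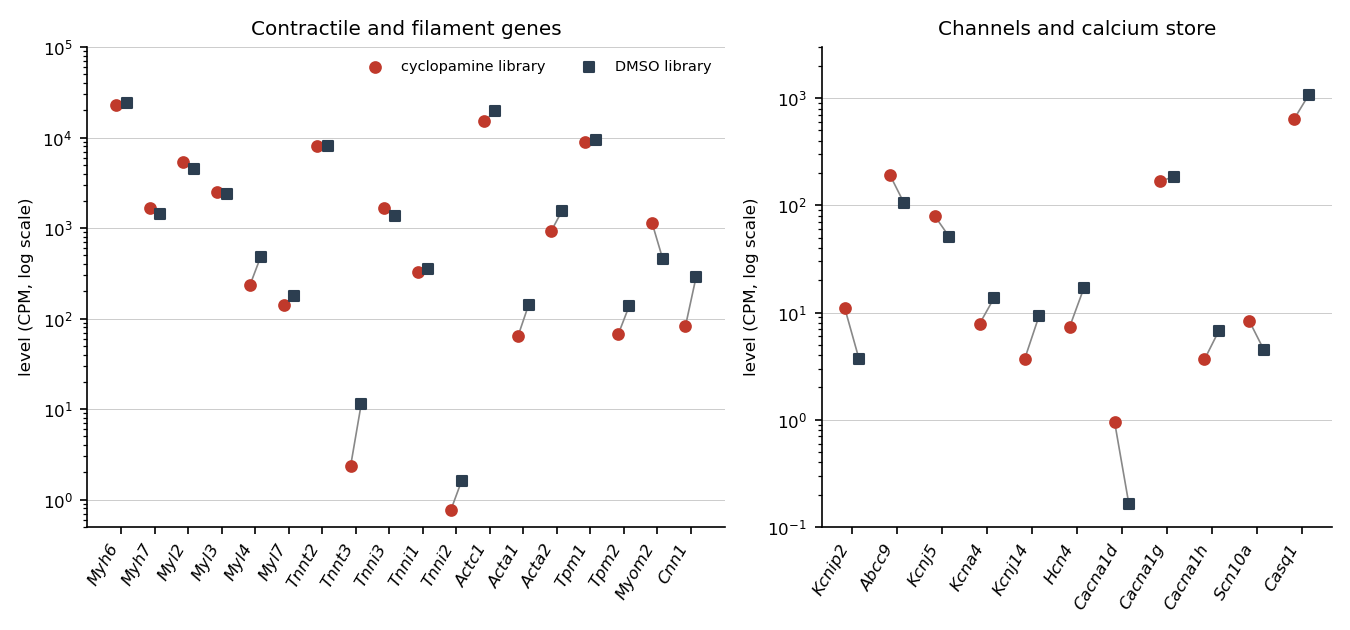
Level in CPM (log scale) of contractile and filament genes (left panel) and of channel and calcium store genes (right panel) in the cyclopamine library (red circles) and the DMSO library (dark squares), 1 library each. Main isoforms such as Myh6, Tnnt2 and Tpm1 are nearly level, Myl4, Tnnt3, Acta1, Cnn1 and Hcn4 are lower with cyclopamine, and Myom2, Kcnip2 and Cacna1d are higher.

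Among hormone and signalling genes of the heart a minority passed the size rule, beside the 3.29% higher and 6.41% lower of all genes kept. The natriuretic peptide and cardiac stress list had 0 of 19 genes higher and 2 lower by size, namely the protease gene Furin at -0.59 and the receptor gene Npr1 on 18 counts with cyclopamine against 32 with DMSO. Nppa and Nppb, the atrial and brain natriuretic peptides, lay on opposite sides of 0, with 413441 counts in the cyclopamine library and 480614 in the DMSO library for Nppa (-0.28) and 54310 and 38459 for Nppb (0.43). Of 36 cardiac transcription factor genes 1 was higher, Ppara, at 523 counts with cyclopamine against 288 with DMSO, and 1 lower, Heyl, at 35 against 70. Of 28 adrenergic, muscarinic and cyclic AMP genes Pde1c, a phosphodiesterase, was higher with 1471 counts with cyclopamine against 603 with DMSO, at 1.22. Rgs2 (-1.32), which curbs G protein signals, Pde5a (-0.68), Adcy5 (-0.64), the main cardiac adenylyl cyclase, and Pde4d (-0.59) were lower.

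In energy metabolism a minority of each list passed the size rule, beside 3.29% higher and 6.41% lower of all genes kept. The creatine, myoglobin and NAD salvage list had 3 of 15 higher and 0 lower by size. Fatty acid oxidation had 3 of 34 higher and 1 lower, and glycolysis 1 of 35 higher and 2 lower. Of 67 nuclear genes of oxidative phosphorylation 0 were higher and 0 lower by size, though 56 of them had a log2 fold change above 0 (median 0.12). Mb, myoglobin, had 41380 counts in the cyclopamine library and 18445 in the DMSO library, at 1.10 (1.08 to 1.13), and 31.9% of its exonic bases lie in other annotated genes that had few counts. Nmrk2 and Nampt, which make NAD from salvaged precursors, had 6698 counts with cyclopamine against 3154 with DMSO and 1170 against 607. Lpl, which frees fatty acids from circulating lipid, had 52379 counts with cyclopamine against 32089 with DMSO, at 0.64, and Plin5, which coats lipid droplets, 32 against 10. Ucp2, a mitochondrial carrier, was lower at -0.62. In glycolysis Aldoc, an aldolase, was higher at 584 counts with cyclopamine against 219 with DMSO, and Slc16a3, the lactate exporter, lower at 2500 against 5634, at -1.24 (-1.30 to -1.17). Ldhb, the heart form of lactate dehydrogenase, made up 47.8% of its summed RPKM with Ldha with cyclopamine and 39.5% with DMSO.

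Mitochondrially encoded genes were uneven. Of 13 genes for proteins 2 were higher and 3 lower by size, beside 3.29% higher and 6.41% lower of all genes kept. The complex I gene mt-Nd5 was higher by the most CPM of any gene past the size rule, with 509879 counts with cyclopamine and 299693 with DMSO, at 0.70. The ribosomal RNA genes mt-Rnr2 and mt-Rnr1 had 87705 counts with cyclopamine against 36471 with DMSO and 22219 against 12209. Among the other deep genes mt-Co1 was at 0.40 and mt-Nd4 at 0.41, mt-Cytb at -0.14, and mt-Nd1 and mt-Nd2 both at -0.03. The shallow genes mt-Co2, mt-Co3, mt-Atp6, mt-Nd3 and mt-Nd4l share nearly all of their windows with another annotated gene (100% for mt-Co2), and mt-Atp8 overlaps mt-Atp6. The values of these genes are uncertain, among them the other 4 past the size rule, mt-Atp6 on the higher side and mt-Atp8, mt-Co3 and mt-Nd4l on the lower. Of mt-Co1 and mt-Nd4 51.1% and 62.2% of the windows occur elsewhere. The libraries were made from polyadenylated RNA, in which mitochondrial ribosomal RNA is only partly captured.

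Matrix genes were lower for the most part by less than 1.5-fold. By size 3.29% of all genes kept were higher and 6.41% lower. Of 26 collagen chains 0 were higher and 4 lower by size, and 23 of them had a log2 fold change below 0 (median -0.36). Col3a1, a fibrillar collagen of fibroblasts, had 2099 counts in the cyclopamine library and 3411 in the DMSO library, at -0.76, Col6a3 510 against 932, and Col15a1, of the cardiomyocyte and vessel basement membrane, 752 against 1210. Of 34 matrix protease and crosslinking genes 7 were lower, with Loxl3 at -1.46 and Loxl2 at -0.74, both of which encode lysyl oxidase-like enzymes, and Mmp23 at -1.10. Lamb3, a laminin chain, had 1203 counts with cyclopamine against 2589 with DMSO, at -1.17. The fibroblast markers that are not collagens included Pdgfra at -0.36 and Tcf21 at -0.09, and Dcn, decorin, was higher by size with 411 counts with cyclopamine against 229 with DMSO. Epicardial and mesothelial markers went both ways, with Upk1b (1.05), Lrrn4 (0.68) and Msln (0.63) higher and Krt7 (-1.24), Aldh1a1 (-1.02), Krt18 (-0.74) and Igfbp5 (-0.60) lower.

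In other signalling pathways a minority of members passed the size rule, beside the 3.29% higher and 6.41% lower of all genes kept. The Wnt list was above both of these shares. In the Wnt list 3 of 44 were higher, the secreted inhibitors Wif1 (409 counts with cyclopamine against 189 with DMSO) and Dkk3 (749 against 386) and the intracellular inhibitor Nkd1 (85 against 40). Its 5 lower members included Sfrp2 (-1.03), a secreted inhibitor, Nkd2 (-0.93) and the ligand gene Wnt5a (-0.74), so inhibitor genes lay on both sides. Of 42 TGF-beta and BMP genes 1 was higher, Grem1, and 4 lower, Bmp5 (46.7% of whose exonic bases lie in another gene), Gdf6, Ltbp3 and Ltbp4. Of 30 genes of the Hippo pathway 1 was higher, F3, the tissue factor gene, at 434 counts with cyclopamine against 198 with DMSO, and 0 were lower. Of 20 Notch genes 0 were higher and 2 lower, Heyl and Nrarp, and 79.4% of the exonic bases of Nrarp lie in another gene. Of 35 ErbB, FGF and PDGF genes 0 were higher and 2 lower, Fgfr2 (-0.70) and Fgf7 (19 counts with cyclopamine against 33 with DMSO). H19, an imprinted RNA of fetal growth, had 1120 counts with cyclopamine against 1879 with DMSO, at -0.81.

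The immediate early and integrated stress response lists had larger shares higher by size than the NRF2, chaperone and heat shock lists. Atf3 belongs to both the immediate early and the integrated stress response list. Over all genes kept the shares were 3.29% higher and 6.41% lower. The integrated stress response list had a median log2 fold change of 0.25. In the integrated stress response list 3 of 29 were higher and 1 lower by size, the transcription factor genes Atf3 (1025 counts with cyclopamine against 528 with DMSO), Ddit3 (638 against 331) and Cebpb (157 against 94), and Nupr1 on the lower side. Of 30 NRF2 targets and antioxidant genes 0 were higher and 1 lower, Aox1, an aldehyde oxidase, at -0.71. Of 24 endoplasmic reticulum chaperones 0 were higher and 1 lower, and of 25 cytosolic heat shock genes 1 was higher, Hspa1b, which shares 62.3% of its windows. Of 32 immediate early factors 6 were higher, including Egr1 at 0.87 with 6902 counts with cyclopamine against 3601 with DMSO and Nr4a3 on 84 counts against 34, and 2 lower. Ccl2, a monocyte chemokine, had 470 counts in the cyclopamine library and 176 in the DMSO library, at 1.34 (1.10 to 1.61). Of 64 ribosomal protein genes 63 and of 20 tRNA synthetase genes all differed by less than the size rule asks, and the exception, Rps2, shares 71.3% of its windows with another gene. The histone genes could hardly be read, since 17 of 42 listed were kept in libraries made from polyadenylated RNA, and H1f3 (13 counts with cyclopamine against 59 with DMSO) was the lowest of those.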

How the data were processed

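Messenger RNA of cultured neonatal mouse cardiomyocytes was sequenced by the authors, and they deposited raw counts of reads for each gene, whole numbers with no normalization. HISAT2 2.1.0, Trimmomatic 0.33, featureCounts, FastQC and the build GRCm38 appear in the submitters' processing notes, without their order. Libraries were stranded, per the labels' protocols. The annotation behind the counts and whether counting used strand are not stated in the labels or the file headers, so overlapping genes may share reads. The columns name the group and no replicate.

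From these counts, the cyclopamine and DMSO columns were scaled by TMM (edgeR 4.0.16, R 4.3.3). Log2 fold changes used log2 CPM with a prior count of 2, and counting intervals were exact conditional binomial intervals at 95% (scipy 1.17.1, Python 3.11.15). RPKM was computed here from the scaled CPM and the exon length in GENCODE release M21, which matched 55227 of 55487 genes. No test across replicates was run, because 1 column per group leaves no residual degrees of freedom.

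The 66 gene lists and the genes described were chosen with earlier results of these data known. Named were the 12 highest and 12 lowest genes past the size rule with a mean of at least 5 CPM and a descriptive symbol, the 10 genes past it that were higher, and the 10 lower, by the most CPM, up to 4 members of each list past the size rule, and the Hedgehog, cholesterol, metallothionein and marker genes. Any other gene named, such as Ccnd3, Tpm1, Mki67 or Tagln, was chosen after its value was seen. To judge shared sequence, the longest transcript was taken in windows of 50 bases, and those present in another gene's transcripts were counted. Of 13657 symbols kept, 10053 had a RefSeq promoter window on their chromosome and strand. Some genes are not reported here.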

Additional observations from a re-analysis of the deposited data

How the results depend on the processing

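The counts of genes higher by size and genes lower by size stayed within 1.5 times under DESeq2 size factors, library size only and library size without mitochondrially encoded genes (422 to 455 higher, 867 to 945 lower). They also stayed within it under fold alone with no counting interval (517 higher, 973 lower) and under filterByExpr with TMM on all 3 columns (638 higher, 1133 lower). With no filter 759 genes were higher, beside 1304 lower. With a mean of at least 5 CPM 175 were higher and 333 lower, and at 2-fold 163 were higher and 350 lower. A larger fold makes those counts smaller by construction. With a mean of at least 5 CPM the shares fell as well as the counts. They were 1.72% higher and 3.28% lower of 10166 genes, beside 3.29% and 6.41% in the main setting, so the shares depend on the level filter. Of 250 named genes checked, 0 gained or lost the size rule under DESeq2 size factors, library size only or a prior count of 0.5. None of those past the size rule changed sign. Under library size only, 9 of the 250 moved outside their counting interval. Other genes named, among them Cdkn2b and Lin9, which lie near 1.5-fold, were not checked. Library size only moved the median log2 fold change of all genes kept to -0.03. List medians moved by at most 0.02 under library size only and by at most 0.26 among genes with a mean of at least 5 CPM, where 2 lists near 0 changed sign, cytosolic heat shock proteins and the ErbB, FGF and PDGF list. Under library size only 2 others did so, intracellular sterol transport and cardiac transcription factors. No paired analysis was possible because the table has 1 column per group, and for the same reason no replicate could be left out. Depth limits genes with few counts, such as Gli1, Shh, Plin5 and Cacna1d.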

Other observations

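All values here are descriptions of the 2 libraries. Further lists are given by their members past the size rule, beside the 3.29% higher and 6.41% lower of all genes kept. Among 16 interferon response genes 2 passed the size rule on the higher side and 1 on the lower. They were Ifit3, an antiviral effector, with 56 counts in the cyclopamine library and 12 in the DMSO library, though 51.2% of its sequence windows occur in another gene, and Stat2, a transcription factor of that response, at 0.67, on the higher side, and the RNA sensor gene Ifih1 at -0.81 on the lower. Of 20 selenoprotein and glutathione peroxidase genes 2 were higher, Dio2, which activates thyroid hormone, on 47 counts with cyclopamine against 19 with DMSO, and Lrp8, which takes up selenoprotein P, with 4220 against 2541. Of 15 acute phase, chemokine and NF-kB genes 1 was higher, Ccl2, and 1 lower, Cxcl16.

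Annotated pseudogenes made up 49 of the 450 genes higher by size and 37 of the 876 lower by size, among 716 pseudogenes kept. Over all genes kept 3.29% were higher and 6.41% lower. The highest of them with a mean of at least 5 CPM, chosen after its value was seen, was Gm2606, a processed pseudogene with 498 counts in the cyclopamine library and 74 in the DMSO library, at 2.66. Long noncoding RNA genes made up 42 of the higher and 85 of the lower, among 725 kept.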
